A study of Mus musculus with 16 samples.

Results

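The non-collagen part of the kidney's extracellular matrix was described here through 10 genes chosen by symbol: FN1, FBN1, FBLN2, TNC, THBS1, SPARC, LOX, DCN, LUM and BGN, written below with small letters as mouse genes are. Of the 10 genes, 9 had a row among the 18132 genes measured. Fn1, which encodes fibronectin, was not analysed here. Total RNA from 16 mouse kidneys was hybridized to Illumina MouseRef-8 v2 BeadChips, 1 array per sample, with linear intensities for each gene. The study compared WT and IL-33-deficient (KO) mice, both C57/BL6 by the labels, with or without unilateral ureteral obstruction (UUO). In this model of renal fibrosis a ureter is closed, here with a metal clip on the left side, and the kidney above it is injured. Obstructed kidneys were taken 24 h after ligation from 7 WT mice (3 in set 1, 4 in set 2) and 5 KO mice (2 in set 1, 3 in set 2) as the array labels count them. Control arrays, labelled as controls and by the series design as without treatment, numbered 2 for WT and 2 for KO, and their set was not given. The operation and the obstruction therefore cannot be told apart. Mice were 8 weeks old unless stated otherwise, and the Il33 deletion, present in every cell, had been backcrossed for 10 generations. Arrays are named by the number in their label, which is not a pairing between groups. The labels do not state that each array came from a separate mouse, so p-values measure the spread between these arrays.

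These genes encode secreted proteins that surround fibroblasts, vessels and tubules. Fibrillin-1 (Fbn1) builds the microfibrils on which elastin is laid down and which hold latent TGF-β, and fibulin-2 (Fbln2) binds to them. Tenascin-C (Tnc), thrombospondin-1 (Thbs1) and osteonectin (Sparc) are matricellular proteins, which tune adhesion and signaling more than they bear load, and lysyl oxidase (Lox) crosslinks collagen and elastin. Decorin (Dcn), lumican (Lum) and biglycan (Bgn) are small leucine-rich proteoglycans that bind collagen fibrils. In the injured kidney such proteins are made by fibroblasts, pericytes and vascular smooth muscle, and some also by tubular cells.

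Upstream promoter sequences were taken from RefSeq (build GRCm38.p6) where found, as the 250 bases before each annotated start, read 5′ to 3′ on the gene's strand. Of the 9 genes, 5 gave a sequence (Fbn1, Tnc, Fbln2, Sparc and Bgn), with 2 starts for Tnc. None was found for Thbs1, Dcn and Lum, and Lox was not looked up. Those of 4 genes that rose after obstruction are shown. Capitals mark GC boxes, TATA boxes and SMAD elements.
Fbn1 (chr2:125506439-125506688, minus strand): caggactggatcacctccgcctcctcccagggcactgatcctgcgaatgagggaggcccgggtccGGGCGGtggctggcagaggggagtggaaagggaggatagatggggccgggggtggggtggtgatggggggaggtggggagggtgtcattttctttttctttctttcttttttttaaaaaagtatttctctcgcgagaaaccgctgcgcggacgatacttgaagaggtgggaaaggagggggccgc
Tnc (chr4:64047016-64047265, minus strand): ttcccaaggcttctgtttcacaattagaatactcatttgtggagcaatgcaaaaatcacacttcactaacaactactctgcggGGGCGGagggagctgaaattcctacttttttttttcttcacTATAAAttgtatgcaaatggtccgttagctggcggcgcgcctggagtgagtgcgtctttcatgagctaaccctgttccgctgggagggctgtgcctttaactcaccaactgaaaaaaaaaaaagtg
Sparc (chr11:55420081-55420330, minus strand): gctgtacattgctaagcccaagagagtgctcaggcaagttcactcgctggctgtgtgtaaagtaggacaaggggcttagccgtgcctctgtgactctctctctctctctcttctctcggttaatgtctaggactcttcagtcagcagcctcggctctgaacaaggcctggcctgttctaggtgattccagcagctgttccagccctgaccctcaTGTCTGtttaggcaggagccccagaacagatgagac
Bgn (chrX:73483351-73483600, plus strand): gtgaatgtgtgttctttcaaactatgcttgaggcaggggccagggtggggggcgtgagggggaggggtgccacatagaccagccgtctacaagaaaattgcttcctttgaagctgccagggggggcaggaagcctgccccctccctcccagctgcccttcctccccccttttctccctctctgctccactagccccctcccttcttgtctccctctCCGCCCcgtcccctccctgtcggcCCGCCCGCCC
GC boxes (GGGCGG or CCGCCC) began at -185 in Fbn1, at -167 in Tnc, at -16 in Fbln2 and at -34 in Bgn, counted from the start, with 2 more that overlap each other at the end of the Bgn window. A TATA box (TATAAA or TTTATA) began at -126 before the upstream Tnc start, and a SMAD element (CAGACA or TGTCTG) at -36 in Sparc. The window of the second Tnc start, which overlaps the one shown, held the same GC box and TATA box, at -246 and -205, and a SMAD element at -71. Among 32851 promoters of this length, 32.7% held a GC box, 12.4% a TATA box, 17.1% a SMAD element and 6.75% the AP-1 letters TGANTCA, which none of the 6 promoters of these genes held. Each motif was sought on both strands, and a match describes letters only.

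The deleted gene and the tissue were checked first. Il33 lay at 6.80 to 7.02 (log2 intensity, as for all levels that follow) on the 7 KO arrays, at 7.62 and 8.02 in WT controls and at 8.39 to 9.57 after UUO in WT. No KO array reached a WT array. Kidney markers were bright on every array, with the phosphate transporter Slc34a1 at 12.23 to 14.35 and uromodulin (Umod) at 12.70 to 13.95. Havcr1, the tubular injury marker KIM-1, lay at 7.07 to 7.37 in controls. After UUO it reached at least 12.84 on 11 of 12 arrays, but only 10.42 on WT array 3820 of set 1. In the matrix genes array 3820 was the lowest of the 7 WT UUO arrays for 5 of the 9 genes. A search of 18 groups of values for an array far from the others found 0, so 3820 was no outlier by that rule. Because of its low Havcr1 and these same values, results are also given without it. Array medians before log2 were 132.3 to 133.4, and the table has a floor near 95.5, so dim genes have compressed fold changes.

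Obstruction was followed within 24 h by higher levels of fibrillin-1 and of the matricellular genes among the 9. Fibulin-2, decorin and lumican did not pass in either genotype. Other genes of these classes, given further on, changed in both directions. In WT kidneys, 4 of the 9 genes rose and none fell (adjusted p under 0.05 over all genes), where 15.2% of all 18132 genes passed and 6.97% rose. In KO kidneys, 6 of the 9 rose and none fell, where 21.8% of all genes passed and 10.6% rose. Fbn1, Tnc, Thbs1 and Sparc rose in both genotypes, and Lox and Bgn passed in KO kidneys only at this threshold, a difference between genotypes that did not pass its own test, given further on. The median log2 fold change over the 9 genes was 0.42 in WT and 0.64 in KO kidneys, beside medians of all genes within 0.001 of 0. In whole kidneys, more cells of a type and more RNA per cell cannot be told apart.

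**Figure D1:**
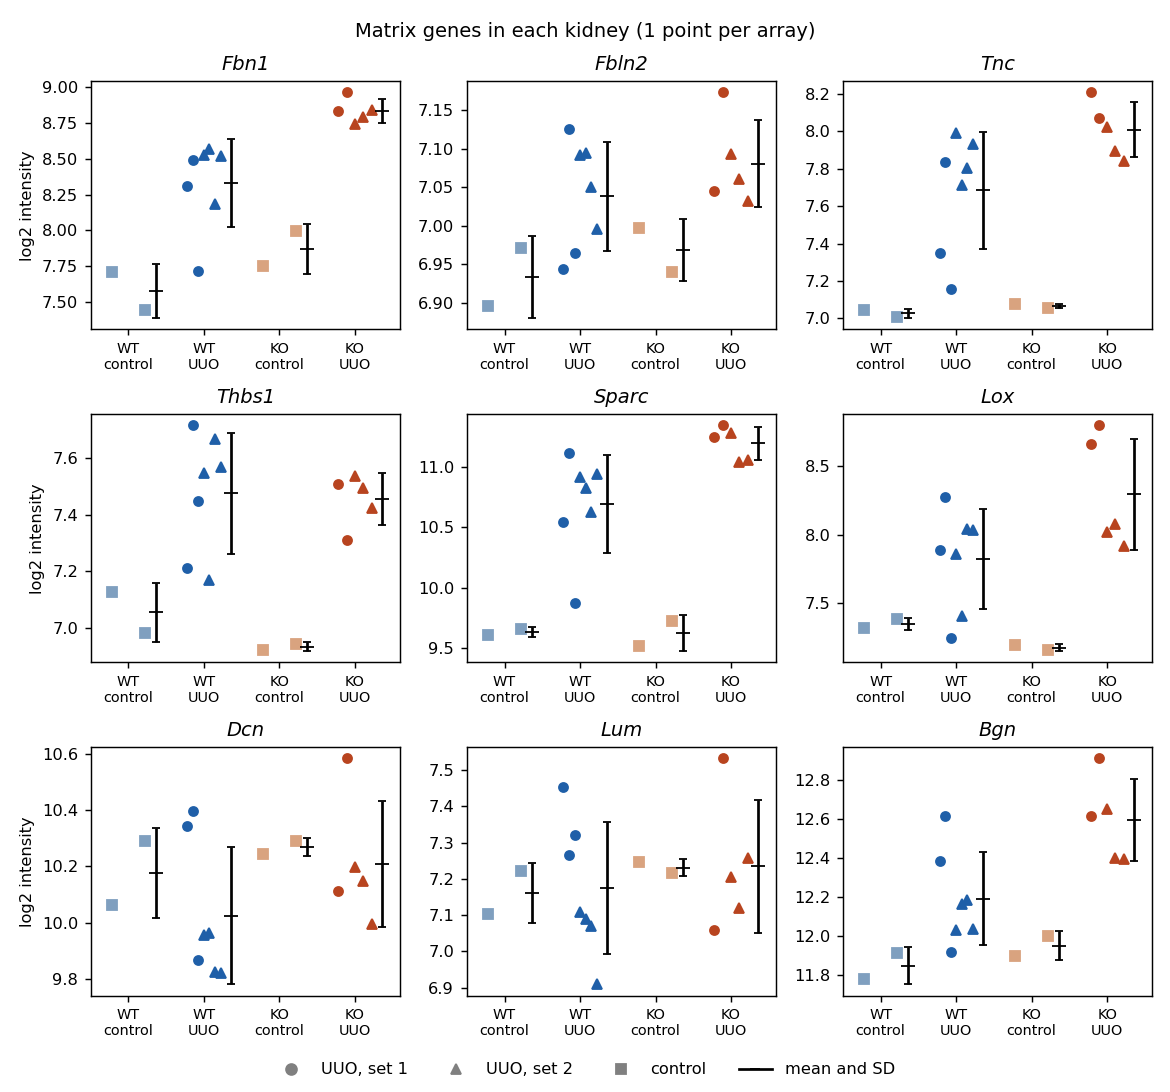
Log2 intensity (vertical axes, which do not start at 0) of the 9 matrix genes on each of 16 arrays in the 4 groups of genotype and treatment. Circles and triangles are UUO arrays of set 1 and set 2, squares are controls, and bars are the group mean and SD; Fbn1 in the 5 KO UUO kidneys, 8.74 to 8.96, lies above all 7 WT UUO kidneys.

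Fibrillin-1 was the one gene of the 9 for which every obstructed KO kidney lay above every obstructed WT kidney. Fbn1 was at 7.71 and 7.44 in WT controls and at 7.75 and 7.99 in KO controls. After UUO the 7 WT kidneys ranged from 7.71 to 8.57 with a median of 8.49. The 5 KO kidneys were at 8.83, 8.96, 8.74, 8.79 and 8.84. Array 3820 was the only obstructed WT kidney at the level of the controls. Fbn1 rose by a log2 of 0.76 ± 0.17 (SE, adjusted p = 0.0079, limma) in WT and by 0.96 ± 0.18 (adjusted p = 0.0011, limma) in KO kidneys. Without array 3820 the WT rise was 0.86 ± 0.10 (adjusted p = 3.98e-05, limma).

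Fibulin-2, which binds fibrillin, did not pass in either genotype and was at or barely above the level of the deleted Il33 on KO arrays (6.80 to 7.02). Fbln2 was at 6.90 and 6.97 in WT controls, from 6.94 to 7.13 with a median of 7.05 after UUO in WT, at 6.997 and 6.94 in KO controls, and at 7.04, 7.17, 7.09, 7.06 and 7.03 after UUO in KO kidneys. Obstructed KO kidneys were all above their controls, while the WT groups overlapped. The differences, 0.10 ± 0.052 in WT (95% CI -0.0061 to 0.21) and 0.11 ± 0.054 in KO kidneys (95% CI -0.0033 to 0.23), did not pass, with adjusted p of 0.223 and 0.177 (limma). With most of the table's floor subtracted before log2 they were 0.33 ± 0.15 and 0.33 ± 0.16 (adjusted p of 0.187 and 0.164, limma). Fbln2 was the one gene of the 9 with a mean level below the median of all genes.

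Sparc, which binds collagen and calcium, had the largest rise of the 9 genes on this scale in both genotypes, but not with most of the table's floor subtracted. It was at 9.60 and 9.66 in WT controls and at 9.52 and 9.73 in KO controls. After UUO it ranged from 9.87 to 11.12 with a median of 10.82 in WT, and was at 11.25, 11.34, 11.28, 11.04 and 11.06 in KO kidneys. All 12 obstructed kidneys were above all 4 controls, with array 3820 the lowest of them. The rise was 1.06 ± 0.22 on the log2 scale in WT, a fold of 2.09 (adjusted p = 0.0048, limma), and 1.57 ± 0.23 in KO kidneys, a fold of 2.98 (adjusted p = 0.00021, limma). Without array 3820 the WT rise was 1.197 ± 0.13. With the floor subtracted Sparc rose by 1.15 in WT, less than Tnc (1.40) and Fbn1 (1.17), and by 1.69 in KO kidneys, less than Lox (1.96) and Tnc (1.85).

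Tenascin-C, which is scarce in resting adult tissue and made after injury, was near 7.0 in all 4 controls. Tnc was at 7.04 and 7.01 in WT controls and 7.07 and 7.06 in KO controls, a spread far smaller than that of the obstructed kidneys. These controls were at or just above the level of the deleted Il33 on KO arrays (6.80 to 7.02). Their small spread therefore does not show even expression. After UUO it ranged from 7.15 to 7.99 with a median of 7.81 in WT, and was at 8.21, 8.07, 8.02, 7.90 and 7.84 in KO kidneys. No obstructed kidney overlapped the controls. Tnc rose by 0.66 ± 0.17 in WT (adjusted p = 0.0183, limma) and by 0.94 ± 0.18 in KO kidneys (adjusted p = 0.0015, limma). These rises are compressed, and with most of the table's floor subtracted they were 1.40 ± 0.31 and 1.85 ± 0.32.

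Thrombospondin-1, which can activate latent TGF-β, rose in both genotypes. Thbs1 was at 7.13 and 6.98 in WT controls and at 6.92 and 6.94 in KO controls. After UUO it ranged from 7.17 to 7.72 with a median of 7.55 in WT, and was at 7.51, 7.31, 7.54, 7.50 and 7.42 in KO kidneys, inside the WT range. The rise was 0.42 ± 0.12 in WT (adjusted p = 0.0285, limma) and 0.52 ± 0.13 in KO kidneys (adjusted p = 0.0068, limma). The KO controls and 1 WT control lay within the range of the deleted Il33 on KO arrays, so these rises are compressed, and with the floor subtracted they were 0.96 ± 0.24 and 1.32 ± 0.25. Thbs1 was the one rising gene for which array 3820, at 7.45, was not the lowest of the obstructed WT kidneys.

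Lysyl oxidase was split between the sets among the obstructed KO kidneys. Lox was at 7.31 and 7.38 in WT controls and at 7.19 and 7.15 in KO controls. After UUO it ranged from 7.24 to 8.27 with a median of 7.89 in WT. The KO kidneys of set 1 lay at 8.66 and 8.80, those of set 2 lower, at 8.02, 8.08 and 7.91. Array 3820 fell below both WT controls, so the WT groups overlapped. The difference in WT was 0.47 ± 0.26 (95% CI -0.072 to 1.02, adjusted p = 0.274, limma), and without array 3820 it was 0.57 ± 0.23 (adjusted p = 0.106, limma). In KO kidneys Lox rose by 1.12 ± 0.27, a fold of 2.17 (adjusted p = 0.0064, limma).

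Of biglycan, decorin and lumican, biglycan alone passed, and in KO kidneys only at this threshold. Bgn was at 11.78 and 11.92 in WT controls and at 11.90 and 12.004 in KO controls. After UUO it ranged from 11.92 to 12.61 with a median of 12.17 in WT, and was at 12.61, 12.91, 12.65, 12.40 and 12.40 in KO kidneys. The obstructed KO kidneys lay clear of their controls, whereas the lowest obstructed WT kidney, array 3820, was barely above the higher WT control. Bgn rose by 0.64 ± 0.16 in KO kidneys (adjusted p = 0.0091, limma). The difference in WT was 0.34 ± 0.15 (95% CI 0.012 to 0.67, adjusted p = 0.174, limma).

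Decorin and lumican did not pass in either genotype. Dcn was at 10.06 and 10.29 in WT controls, from 9.82 to 10.40 with a median of 9.95 after UUO in WT, at 10.25 and 10.29 in KO controls, and at 10.11, 10.58, 10.20, 10.15 and 9.996 after UUO in KO kidneys. The 4 WT kidneys of set 2, at 9.82 to 9.96, were below both WT controls, but 2 of the 3 of set 1 were above them. With the obstructed kidneys of set 2 alone, Dcn was 0.28 ± 0.076 lower than in controls in WT (adjusted p = 0.0168, limma, against 0.656 with both sets). In that setting 4241 of all genes passed. With set 1 alone the difference was 0.027. As the set of the controls is not given, set and obstruction cannot be told apart in these 2 comparisons. The difference was -0.15 ± 0.16 in WT (95% CI -0.49 to 0.19) and -0.060 ± 0.17 in KO kidneys (95% CI -0.42 to 0.30). Lum was at 7.10 and 7.22 in WT controls, from 6.91 to 7.45 with a median of 7.11 after UUO in WT, at 7.25 and 7.21 in KO controls, and at 7.06, 7.53, 7.20, 7.12 and 7.26 after UUO in KO kidneys. Controls lay inside the range of the obstructed kidneys in both genotypes, and the differences were 0.012 ± 0.12 and 0.0029 ± 0.13. The intervals for Lum, -0.25 to 0.28 in WT and -0.28 to 0.28 in KO kidneys, leave room for changes of that size. Lum was dim, so this scale is compressed. With most of the table's floor subtracted its differences were -0.0036 ± 0.29 in WT and -0.020 ± 0.30 in KO kidneys, which leaves room for larger changes.

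**Figure D2:**
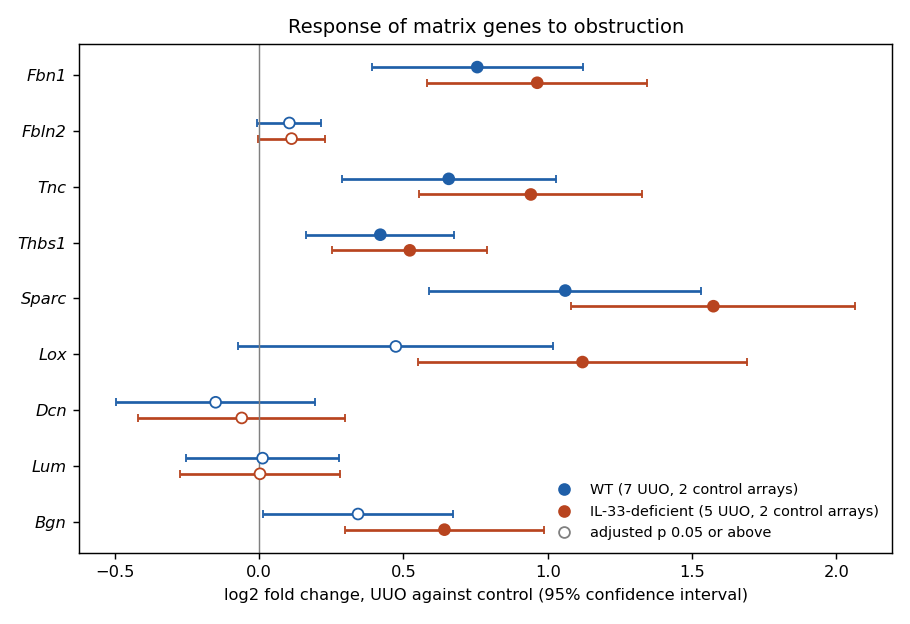
Log2 fold change of UUO against control (horizontal axis) for each of the 9 genes in WT and in KO kidneys, with 95% confidence intervals from the model of the 4 groups. Filled points have an adjusted p under 0.05: 4 in WT and 6 in KO kidneys; on this scale Sparc lies farthest from 0 in both, which does not hold with the floor subtracted.

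The exact permutation tests over arrays gave the smallest p their design allows for Fbn1, Tnc, Thbs1 and Sparc in WT kidneys (two-sided p = 0.0278, 36 splits) and for Fbn1, Tnc, Thbs1, Sparc, Lox and Bgn in KO kidneys (two-sided p = 0.0476, 21 splits). The obstructed and control groups did not overlap, with UUO higher, for 5 of the 9 genes in WT and 7 in KO kidneys, where 10.2% and 17.5% of all genes did so. The calls rested on few controls. With WT control 3811 left out, 1 gene passed in WT (Fbn1), and with 3812 left out none did, the lone control then being assumed to vary like the other groups. With KO control 3813 or 3814 left out, 3 or 4 genes passed in KO kidneys. Subtracting most of the table's floor before log2 left the counts at 4 and 6.

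IL-33-deficient and WT kidneys after UUO were then compared over all 12 arrays labelled so, 5 KO and 7 WT, at the threshold of the study (unadjusted p under 0.05, adjusted p under 0.25 and fold change above 1.3). None of the 9 genes passed, where 2 of 18132 genes did (0.011%). The contrast as described with the study holds 4 WT arrays in place of 7, without saying which. With the 4 WT arrays of set 2 and all 5 KO arrays, 226 genes passed (1.25%), among them Fbn1 by 0.38 ± 0.077 (adjusted p = 0.0671, limma) and Bgn by 0.49 ± 0.095 (adjusted p = 0.0666, limma). Over the 12 arrays, at an unadjusted p under 0.05, 5 of the 9 genes (Fbn1, Sparc, Bgn, Lox and Tnc) were higher in KO kidneys, where 5.55% of all genes were higher. The median over the 9 genes was a log2 of 0.32, beside 0.0026 over all genes, and 8 of the 9 differences were above 0. These genes are correlated with each other, so they are not 9 separate pieces of evidence.

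Fbn1 differed most beyond its spread, by 0.50 ± 0.13 (adjusted p = 0.311, limma), a fold of 1.42, with KO kidneys above WT kidneys on all arrays. Its exact two-sided permutation p was 0.0038 where 0.0013 was the smallest possible, and 0.419% of all genes had groups that did not overlap with KO higher. Fbn1 is on the study's own list of genes from these kidneys, so its direction is no independent evidence. Without array 3820 the difference was 0.40 ± 0.069 and passed (adjusted p = 0.230, limma). Over all alternatives the difference lay between 0.34 and 0.73 with adjusted p from 0.0671 to 0.736 (limma).

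Sparc was higher in KO kidneys by 0.50 ± 0.17 (adjusted p = 0.356, limma; exact permutation p = 0.0152), and 0.37 ± 0.098 without array 3820. Bgn was higher by 0.40 ± 0.12 (adjusted p = 0.324, limma; exact permutation p = 0.0164), and 0.36 ± 0.12 without array 3820. For both, the groups overlapped through WT array 3819, which at 11.12 for Sparc and 12.61 for Bgn was the highest WT kidney. Array 3819 was singled out after its values were seen, and leaving it out must widen the differences of Sparc and Bgn. Without array 3819, Fbn1, Bgn and Sparc passed the threshold, which is therefore no separate evidence for a difference. Over all genes, the number passing ranged from 1 to 309 with 1 array left out, against 2 with none left out. The number without array 3819 is not given here. Lox was higher by 0.47 ± 0.20 (exact permutation p = 0.077) and Tnc by 0.32 ± 0.14 (exact permutation p = 0.0568). Without array 3820 the differences were 0.38 ± 0.18 and 0.24 ± 0.11.

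The other 4 genes had differences inside their spread. Dcn differed by 0.18 ± 0.12 (95% CI -0.087 to 0.45), Lum by 0.060 ± 0.097 (95% CI -0.15 to 0.27), Fbln2 by 0.043 ± 0.039 (95% CI -0.043 to 0.13) and Thbs1 by -0.020 ± 0.093 (95% CI -0.22 to 0.18). The interval for Thbs1 overlaps those of Sparc (0.13 to 0.88), Bgn (0.14 to 0.66), Lox (0.036 to 0.91) and Tnc (0.028 to 0.62). It does not reach that of Fbn1 (0.22 to 0.78). All of these genes rose after obstruction in KO kidneys, and whether their genotype differences differ from each other was not tested.

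**Figure D3:**
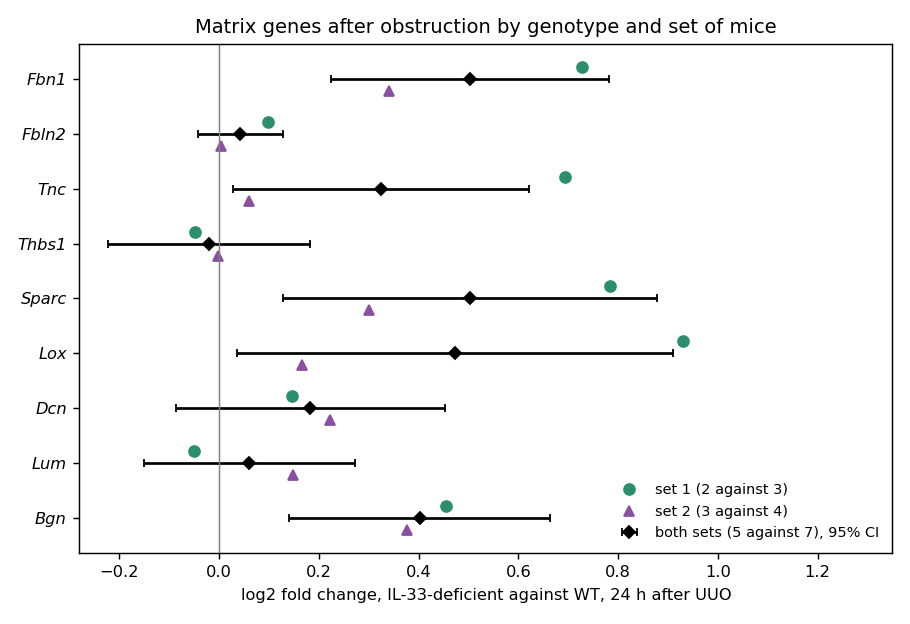
Log2 fold change of KO against WT kidneys 24 h after UUO (horizontal axis) for the 9 genes. Diamonds with 95% confidence intervals use all 12 arrays, circles set 1 and triangles set 2; Tnc and Lox have differences of 0.69 and 0.93 in set 1 and of 0.060 and 0.17 in set 2.

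The sets of mice divided these genes. In set 2, where 3 KO and 4 WT kidneys were obstructed and array 3820 plays no part, Fbn1 was higher in KO kidneys by 0.34, Sparc by 0.30, Bgn by 0.38 and Dcn by 0.22. These 4 genes had the smallest exact permutation p possible (0.0286), and Lum was higher by 0.15 (exact permutation p = 0.0571). The groups of set 2 did not overlap for these 5 of the 9 genes, with KO higher, where 4.49% of all genes did so. In set 1 the differences were 0.73 for Fbn1, 0.78 for Sparc, 0.45 for Bgn, 0.15 for Dcn and -0.051 for Lum, with overlap for the last 3. Tnc and Lox were higher in KO kidneys of set 1 by 0.69 and 0.93 with no overlap (4 of the 9 genes, where 12.8% of all genes did so), and in set 2 by 0.060 (exact permutation p = 0.571) and 0.17 (exact permutation p = 0.457). No test in set 1 could reach 0.05. Whether the differences of Tnc and Lox differ between sets was not tested.

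Control kidneys gave no genotype difference that passed for any of the 9 genes, nor for any of the 18132 (0.0%, limma, adjusted p under 0.05). The deleted Il33 did not pass either, at -0.95 ± 0.28 (unadjusted p = 0.0037, limma), so this comparison could miss real differences. At an unadjusted p under 0.05 none of the 9 and 664 of all genes (3.66%) differed. The 2 KO controls lay above the 2 WT controls for Fbn1, by 0.30, and Tnc, by 0.040, and below them for Thbs1, by -0.12, and Lox, by -0.17. With 2 arrays on each side 34.0% of all genes did not overlap, and the smallest exact permutation p was 0.333.

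The difference between genotypes in the response to UUO itself did not pass for any of the 9 genes (0.0% of all genes, limma, 860 of them or 4.74% at an unadjusted p under 0.05, and none of the 9). The estimates were largest for Lox, 0.65 ± 0.37 (95% CI -0.14 to 1.44), and Sparc, 0.51 ± 0.32 (95% CI -0.17 to 1.195). Bgn had 0.30 ± 0.22, Tnc 0.28 ± 0.25, Fbn1 0.21 ± 0.25 and Thbs1 0.10 ± 0.17. For Fbn1 the KO controls also lay 0.30 above the WT controls, a difference that did not pass. Adjusted p of the 9 genes ranged from 0.973 to 0.998 (limma), and the intervals for Lox and Sparc include 0 as well as differences above 1. The deleted Il33 did not pass here either, at -1.41 ± 0.32 (adjusted p = 0.899, limma).

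Kidneys of 1 group varied together in these genes. In obstructed WT kidneys, array 3819 was above the group mean for 9 of 9 genes, by 0.27 on average, and array 3820 for only 1, lying 0.33 below on average. Among obstructed KO kidneys, array 3822 was the highest for 7 of 9 genes and array 3899 the lowest for 5. After group means were removed, Dcn and Bgn correlated at r = 0.89 over 16 arrays, Dcn and Lum at 0.74, Fbn1 and Sparc at 0.88, and Tnc and Sparc at 0.85. Lum ran against Tnc (r = -0.55) and Thbs1 (r = -0.45). Fbn1 and Tnc correlated at 0.71, and Lum and Bgn at 0.52. Bgn also correlated with Lox (0.68) and Sparc (0.55), no less than with Lum, so the proteoglycans did not form a group apart. These r values are descriptions over arrays that share injury state and include array 3820.

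**Figure D4:**
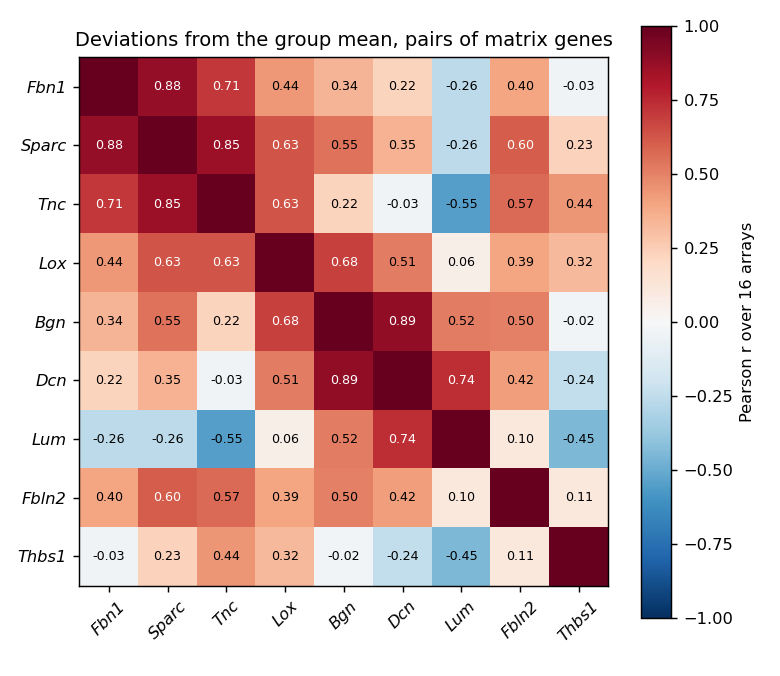
Pearson r between pairs of the 9 matrix genes over 16 arrays after subtracting each group's mean, from -1 (blue) to 1 (red). Dcn with Bgn (0.89) and Fbn1 with Sparc (0.88) are the highest pairs, and Tnc with Lum (-0.55) is the lowest.

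The gene closest to each member over the 16 log2 values was Coro1b for Fbn1 (r = 0.97), Rpl13a for Tnc (0.99), Chic2 for Thbs1 (0.96), Lgals1 for Sparc (0.99), Sct for Lox (0.96), Cdh19 for Dcn (0.90), Cyp7a1 for Lum (0.84), Mmp3 for Bgn (0.95) and Fscn1 for Fbln2 (0.92). These values mostly follow the gap between obstructed and control kidneys. With group means removed the closest were Dpp3 for Fbn1 (0.91), Trp53 for Tnc (0.95), Lgals1 for Sparc (0.97), B3gnt6 for Lox (0.95) and Cyp7a1 for Lum (0.86). For Thbs1, Dcn and Bgn they were the unnamed transcripts 3830408P04Rik (0.92), 8430410K20Rik (0.91) and 3110070M22Rik (0.93). Lgals1, which encodes galectin-1, was the closest to Sparc by both measures, and Cyp7a1, a bile acid enzyme of the liver, to Lum. Each is the highest of 18132 genes over 16 arrays, so the values are descriptions.

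Other non-collagen matrix genes, 105 by a list of names and 96 with a row, changed in both directions. In WT kidneys 14 rose and 10 fell, where 15.2% of all genes passed and 6.97% rose. In KO kidneys 16 rose and 10 fell, where 21.8% of all genes passed and 10.6% rose. The same shares apply to the smaller lists, receptors and cell markers below. Whether any list differs from all genes was not tested. The same 14 rose and 8 fell in both genotypes, and none changed in opposite directions. The 2 comparisons share no arrays but use one estimate of the spread. The largest rises in WT were Ccn1 (listed as Cyr61), a matricellular integrin ligand, by 1.81 ± 0.35, osteopontin (Spp1) by 1.44 ± 0.096, Tgfbi by 1.11 ± 0.13 and Aebp1 by 0.87 ± 0.25. In KO kidneys they were Ccn1 by 1.59 ± 0.36, Tgfbi by 1.43 ± 0.13, Aebp1 by 1.32 ± 0.26 and the elastic fiber protein Efemp2 by 1.28 ± 0.13. Sparc was thus within the range of the strongest matrix responses.

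Leucine-rich proteoglycans other than the 3 described fell or did not pass. Of 11 such genes, 4 fell in WT and 5 in KO kidneys and none rose. Prelp, which anchors basement membranes to connective tissue, had the largest fall of the 96 genes on this scale (-1.35 ± 0.23 in WT, -1.34 ± 0.24 in KO kidneys), and osteoglycin (Ogn) fell by 0.88 ± 0.18 in KO kidneys. Ltbp4, a latent TGF-β binding protein, fell by 0.73 ± 0.070 in WT, and Ecm1 by 0.71 ± 0.12 in WT and 0.98 ± 0.13 in KO kidneys. Of 16 elastic fiber and microfibril genes, 3 rose and 1 fell in WT, and 4 rose and 1 fell in KO kidneys. Of 32 adhesive and matricellular genes, 5 rose and 4 fell in WT, and 6 rose and 3 fell in KO kidneys. Of 15 crosslinking and processing genes, 4 rose and 1 fell in WT and 4 rose in KO kidneys, among them the Lox relative Loxl1 (0.53 ± 0.16 in WT, 0.83 ± 0.17 in KO kidneys). Of 7 basement membrane genes 2 rose in each genotype and 1 fell in KO kidneys, and none of 15 large proteoglycans passed. Many of these genes lay near the level of the deleted Il33 on KO arrays (6.80 to 7.02). The counted falls of Omd (means of 7.11 and 6.92 in WT), Fmod (6.98 and 6.84 in KO kidneys), Tnn and Fras1 were near it. So were Aspn, Epyc, Kera, Chad, Podnl1, Nyx and the large proteoglycans except Srgn and Esm1. For such genes, not passing does not show stable expression. In the comparison of KO with WT kidneys after UUO none of the 96 passed the study's threshold.

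**Figure D5:**
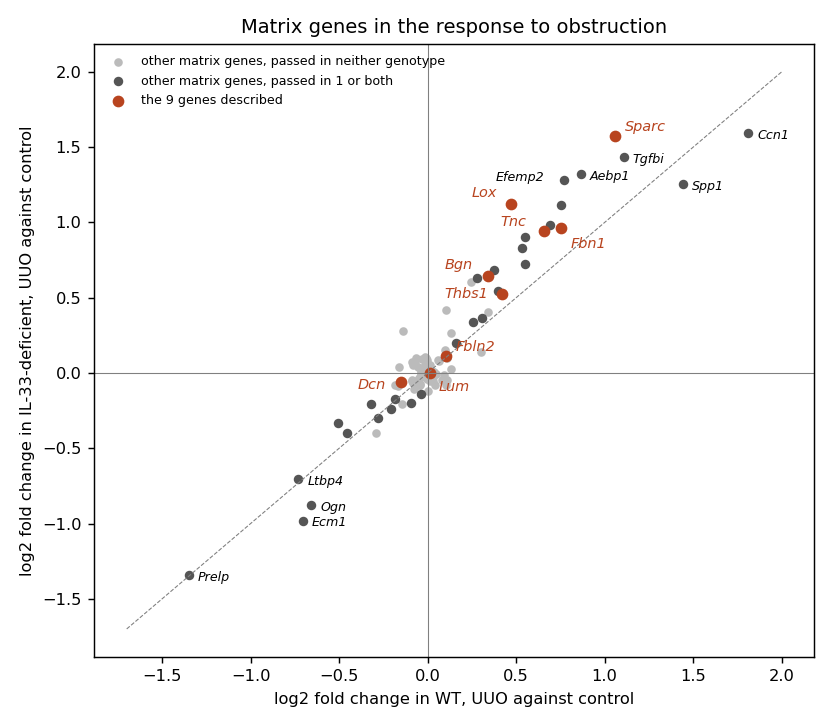
Log2 fold change of UUO against control in WT kidneys (horizontal axis) and in KO kidneys (vertical axis) for the 9 matrix genes (red) and 96 other matrix genes (dark where the adjusted p was under 0.05 in 1 or both genotypes), with the line of equal change dashed. Ccn1 and Spp1 lie below the line, Sparc and Lox above it, and Prelp at -1.35 and -1.34.

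Receptors that bind these proteins moved in part. Of 19 with a row, 4 rose in WT and 7 in KO kidneys, and none fell. Integrin αv (Itgav) rose by 1.00 ± 0.17 in WT and 1.26 ± 0.17 in KO kidneys, and its partner Itgb1, along with the syndecan Sdc1, rose in both. Itga5 rose in WT only at this threshold, and Itga3, Tlr2, Stab1 and Egfr in KO kidneys only. Of 9 genes of the TGF-β system, whose ligands induce much of this matrix, 3 rose in WT (Tgfbr1, Tgfbr2 and Tgif1) and 4 in KO kidneys (the same 3 and Tgfb1, by 0.71 ± 0.16), and none fell. The early TGF-β target Smad7 did not pass, and no gene of these 2 lists passed between genotypes.

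Markers of the cells that make or surround this matrix moved as follows, and their part in the results was not tested. Of 7 fibroblast and pericyte markers, 1 rose and 2 fell in WT kidneys, and 1 rose and 1 fell in KO kidneys, with Pdgfrb the one that rose in both (0.40 ± 0.11 and 0.69 ± 0.11). Their summed intensity was 1345 to 1567 in obstructed WT and 1369 to 1605 in obstructed KO kidneys, below the controls (1707 to 1895). Cxcl12, a chemokine of stromal cells, carried this fall (-1.197 ± 0.23 in WT and -1.31 ± 0.24 in KO kidneys), and without it, a choice made after its values were seen, the sums were 1072 to 1254, 1154 to 1347 and, in controls, 1130 to 1273. None of the 7 passed between genotypes after UUO. In KO against WT kidneys 5 of the 7 were above 0 and the rest were not, with a median log2 of 0.070. Of the 5, Pdgfrb was 0.28 ± 0.083 higher in KO kidneys (adjusted p = 0.320, limma) and Cspg4 0.12 ± 0.044 (adjusted p = 0.385, limma). Of 5 smooth muscle and myofibroblast markers, 3 rose and 1 fell in WT and 3 rose in KO kidneys. Acta2 passed between genotypes after UUO (0.67 ± 0.11 higher in KO, adjusted p = 0.233, limma). The list summed to 1890 to 2720 in obstructed WT and 3112 to 3436 in obstructed KO kidneys. In controls it summed to 1605 to 2045 in WT and 1472 to 1586 in KO kidneys. Of 5 proximal tubule markers 1 fell in WT and 4 in KO kidneys. They summed to 14622 to 37873 in obstructed WT and 8983 to 18940 in obstructed KO kidneys, with all 5 lower in KO than in WT kidneys and none passing. All 5 injured tubule markers rose in both genotypes. Their sum was 6075 to 30521 in obstructed WT and 23354 to 30851 in obstructed KO kidneys, with array 3820 the lowest of these. In controls it was 924 to 945 in WT and 905 to 915 in KO kidneys. Of 7 macrophage and leukocyte markers, 2 rose and 1 fell in WT, and 3 rose and 1 fell in KO kidneys. They summed to 1660 to 3917 in obstructed WT and 2819 to 4381 in obstructed KO kidneys. In controls they summed to 1484 to 1525 in WT and 1316 to 1439 in KO kidneys. Of 3 markers of platelets, which store Thbs1 and Sparc, 1 rose in WT and 1 fell in KO kidneys. They summed to 369 to 420 in obstructed WT and 386 to 417 in obstructed KO kidneys. Red cell markers summed to 3675 to 20452 in obstructed WT and 4406 to 13099 in obstructed KO kidneys, with none passing. None of the endothelial, loop and distal tubule or collecting duct markers rose in either genotype or passed between genotypes after UUO. In WT and KO kidneys, 2 and 2 of 3 collecting duct markers fell (Aqp2 and Aqp3), 2 and 1 of 4 loop and distal tubule markers and 0 and 1 of 6 endothelial markers.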

How the data were processed

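The genes and the lists beside them were chosen with earlier results of these data known. Labeled RNA (Illumina TotalPrep) had been hybridized to Illumina MouseRef-8 v2 BeadChips and read with BeadStudio 2 (per the submitters' processing notes), and arrays were imported with beadarray per the study's methods. The authors deposited linear intensities, 1 per gene symbol, for 18132 genes and 16 arrays with no missing values. How background was corrected, arrays were normalized and probes were joined into genes is not given in the sources used here. Ranked intensities of any 2 arrays were nearly equal (median difference 0.706%, highest 9.11%), which points to a normalization before they were deposited. No detection p-values were in the table, no gene was filtered, and no 2 arrays were duplicates. The number of arrays limits the precision.

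Intensities were quantile-normalized, taken to log2 and compared with lmFit and eBayes (limma 3.58.1, R 4.3.3) in 1 model of 4 groups, or over the 12 UUO arrays for KO against WT after UUO, with Benjamini-Hochberg adjustment over all genes. Calls used an adjusted p under 0.05, and the study's threshold in the latter contrast. Exact two-sided permutation tests, correlations, promoters and plots used Python 3.11.15, numpy 2.4.6, scipy 1.17.1, pandas 2.3.3 and matplotlib 3.10.9. The text names all 10 chosen genes, the 4 largest rises and 3 largest falls of the other matrix genes in each genotype, the closest gene to each member, Il33, Havcr1 and cell markers that moved with a result. Loxl1, receptor and TGF-β genes were named after their values were seen. The closest gene to Fbln2 with group means removed is not reported here. On simulated arrays with 200 of 18132 genes changed by a log2 of 1, 99.0% and 97.0% were recovered for UUO against control in WT and KO, 99.5% for KO against WT after UUO, 97.0% for controls and 92.5% for the interaction. The simulated noise was independent between genes, with no sets of mice and no array that deviates in many genes. The change was also larger than the highest genotype difference of the 9 genes after UUO over the 12 arrays (0.50). The recovery is therefore no measure of the power for these genes.

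Alternatives were no further normalization, median centring, subtraction of 90% of the lowest intensity, a trended and robust prior, array weights, the brighter genes, each array left out, each set alone or as a block, 5 KO against the 4 WT arrays of set 2, the 4 groups in 1 model, fold change minimums of 1.2 and 1.5, an adjusted p under 0.05 and permutation tests.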

Additional observations from a re-analysis of the deposited data

How the results depend on the processing

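With 2 controls of each genotype, single arrays moved the counts of genes passing. UUO against control in WT gave 4 genes, 0 with the UUO arrays of set 1 only and 7 with those of set 2 only (Bgn and Lox also higher, Dcn lower), and 0 to 4 with 1 array left out. In KO kidneys it gave 6 genes, and 3 to 6 with 1 array left out. KO against WT after UUO gave 0 genes, 2 with array weights (Fbn1 and Bgn), 3 among the brighter genes (Fbn1, Bgn and Sparc), 2 for all 5 KO arrays against the 4 WT arrays of set 2, 2 with the 4 groups in 1 model (Fbn1 and Bgn in both), and 0 to 3 with 1 array left out. By the exact permutation test alone Fbn1, Sparc and Bgn were under 0.05. Counts over all genes moved as well, from 2754 in WT to 188 in set 1 and 4241 in set 2, from 3955 in KO kidneys to 2258 in set 1, and from 2 between genotypes after UUO to 226 for all 5 KO arrays against the 4 WT arrays of set 2, 168 among the brighter genes, 127 with 4 groups in 1 model, 81 in set 2 and 80 with array weights. With 1 array left out they ranged from 809 to 3578 in WT, from 2276 to 4294 in KO kidneys and from 1 to 309 between genotypes after UUO.

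Directions turned where values were near 0. Lum in WT became -0.0036 with background subtracted, -0.037 with array weights and -0.12 in set 2, and -0.047 to 0.071 with 1 array left out. In KO kidneys it became -0.020, -0.0015 and -0.038, and -0.072 to 0.047. Dcn became 0.027 in WT and 0.080 in KO kidneys in set 1. Between genotypes after UUO Lum was -0.051 in set 1 and -0.014 to 0.11 with 1 array left out, and Thbs1 -0.071 to 0.020. In controls leaving out 1 array gave -0.020 to 0.21 for Dcn, -0.0030 to 0.073 for Fbln2 and -0.12 to 0.094 for Sparc. In the interaction Fbln2 became -0.0071 with array weights and -0.031 in set 2, and Lum 0.036 and 0.079. With 1 array left out, the interaction was -0.022 to 0.20 for Dcn, -0.030 to 0.045 for Fbln2 and -0.083 to 0.050 for Lum. No other direction of the 9 genes turned under any alternative run.

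No paired analysis was possible because the groups share no replicate numbers. With the set of mice as a block KO against WT after UUO also gave 0 genes.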
